A study of Mus musculus with 2 samples.

Results

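The mitosis and cytokinesis genes are 42 genes that were chosen by name for their roles in cell division, from entry into mitosis to the separation of the daughter cells. All 42 had an assembled locus in both libraries, among 14887 genes for which either library gave a locus. RNA came from wild-type (WT) mouse bone marrow cells, sequenced as 1 library per condition. The cells of the first library (M) had received M-CSF and no RANKL, and those of the second (MR) M-CSF plus RANKL. The labels describe 2 days with M-CSF followed by 2 days with M-CSF and RANKL. The culture method of the study gives a longer time with RANKL than the labels do. The day of harvest for sequencing is not named, and neither is the number of mice behind each library. With 1 library per condition there was no replicate, so no difference below was tested, and each value describes these libraries.

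M-CSF keeps macrophage precursors alive and dividing, and RANKL drives them to become osteoclasts, the bone-resorbing cells that form by fusion of precursors that have left the cell cycle. Cyclin B and Cdk1 start mitosis, the kinetochore and the spindle checkpoint attach and count chromosomes, and the anaphase-promoting complex marks cyclins and securin for destruction so that chromosomes separate. The central spindle and the actin ring then divide the cell. Transcripts of most of these genes are made late in the cell cycle, under the DREAM complex, B-Myb and Foxm1.

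Levels are given as TPM, a length-normalized share of the library in which all assembled loci sum to 1000000. Log2 ratios are those of MR over M after adding 1 to each TPM. In bulk RNA, fewer dividing cells and less RNA per dividing cell cannot be told apart. Aligned bases came to 3.63 Gb in M and 2.98 Gb in MR. All 10 osteoclast markers were higher in MR, and their summed TPM was 152 in M and 25317.7 in MR. The macrophage and monocyte markers summed to 21552.5 in M and 8030.7 in MR, and 7 of 10 were lower in MR. Markers of neutrophils and their precursors summed to 1517.7 in M and 1032.4 in MR, and 10 of 11 were lower in MR. Of the progenitor markers with a value, 3 were lower and 2 higher. The erythroid genes Hbb-bt, Klf1 and Alas2, the lymphoid genes Cd3e, Cd3d and Ncr1, and the mast cell genes Fcer1a and Ms4a2 had no locus in either library. The part of other marrow cells in the values below was not tested.

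Of the 42 genes, 30 were lower and 12 were higher in MR. This is 71.4% lower, beside 40.6% of the 13473 genes that had their own locus and reached a TPM of 1 in either library. The median log2 ratio of the 42 genes was -0.42, with quartiles of -0.71 and 0.10, while the median over the 13473 genes was 0.21, with quartiles of -0.42 and 0.84. With median-of-ratios scaling, which sets the typical gene near 0, 76.2% of the 42 genes and 48.3% of all genes were lower. Mybl2, Tpx2, Aurkb and Spc25 were below -1, which is 9.52% of the 42 genes and 13.3% of all genes. Cenpa alone was above 1, where 21.3% of all genes were. The count below -1 depended on the scaling, and with median-of-ratios scaling it was 8 of the 42 genes, a larger share than the 15.7% of all genes. On TPM, 20 of the 42 genes lay within 0.5 of 0. Their summed TPM was 878 in M and 648 in MR, which is 0.0878% and 0.0648% of each library. Of the 42 genes, 33 had a TPM of at least 10 in M and 23 in MR, so their transcripts were still present in the culture with RANKL. Across the 42 genes, the levels of M and MR had a Spearman correlation of 0.65, given as a description, since both libraries share gene lengths and annotation.

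**Figure D1:**
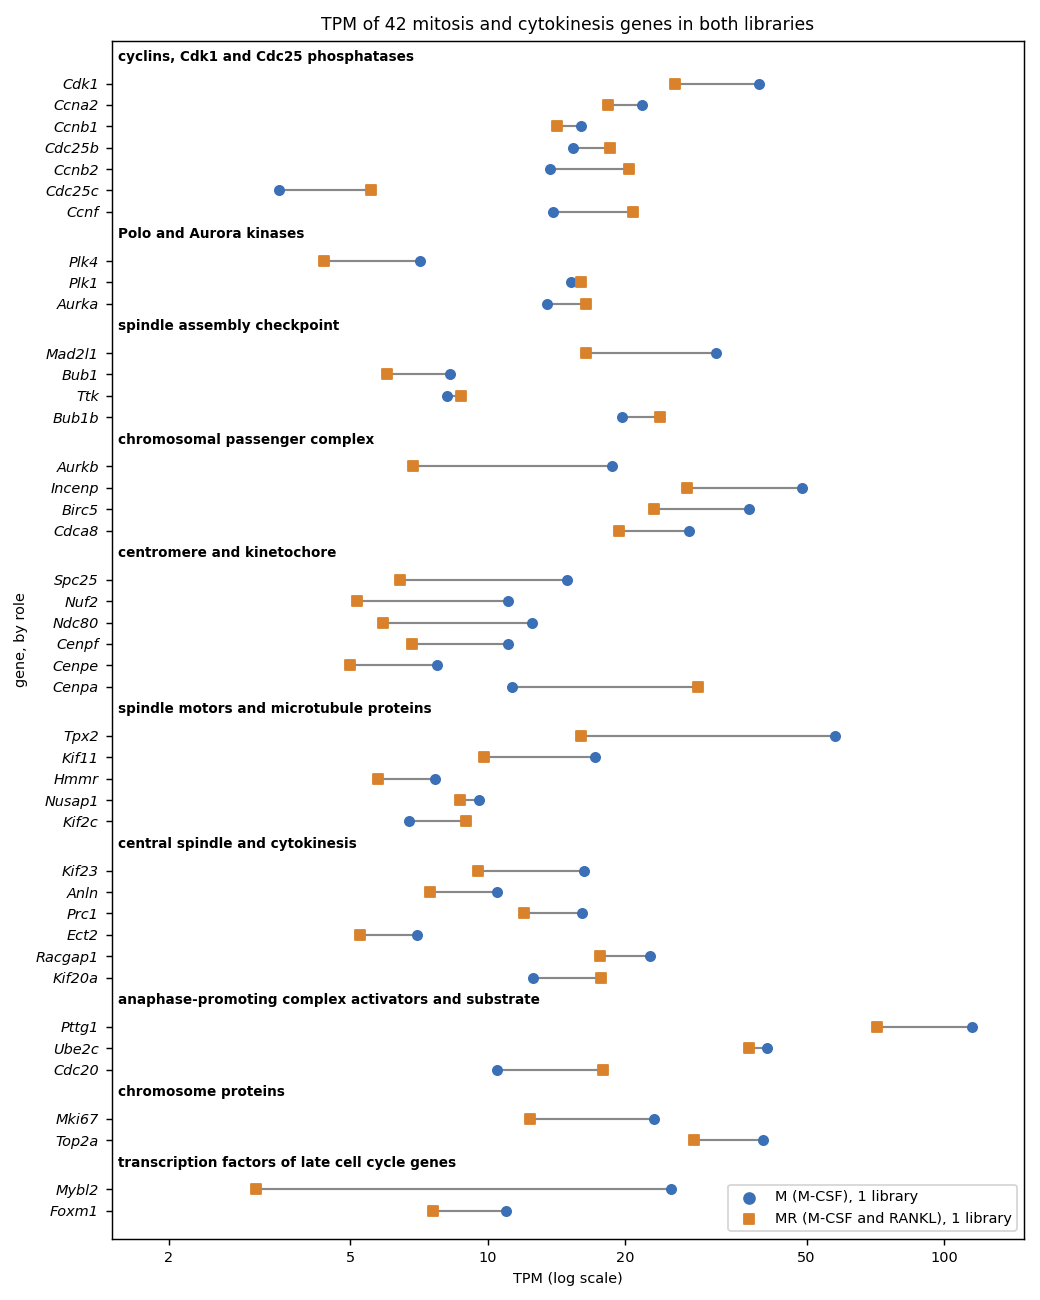
TPM of each of the 42 mitosis and cytokinesis genes in the M library and in the MR library, on a log axis, with the genes grouped by role and 1 point per library. Pttg1 is the highest in both, Tpx2 and Mybl2 show the widest gaps to the side of M, and Cenpa the widest gap to the side of MR.

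Read counts are not listed, so counting error was approximated from FPKM, aligned bases and the shortest coding transcript of each gene. The estimated read pairs per gene ran from 15 to 1171 in M, with a median of 118, and from 8 to 653 in MR, with a median of 68. The 95% Clopper-Pearson interval of the log2 ratio lay below 0 for 18 genes, above 0 for 7 and spanned 0 for 17. The shortest coding transcript was 582 bases for Cenpe and 291 for Prc1. Where longer transcripts were expressed, the pairs are understated and the intervals too wide, so the number that spanned 0 is uncertain. These intervals cover counting error only and say nothing of the spread between cultures.

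The assembly behind the values was not equally clean for all genes. StringTie also lists coverage, the read depth per base, and for 20 of the 42 genes it was within 5% of what the FPKM corresponds to in both libraries. Of these, 19 also had a single locus in each library that ran at most 500 bases beyond either end of the gene. This rule sets no limit on a locus that stops short. The locus of Ube2c, 1 of the 19, covered 34.7% of its exon bases in M and 34.9% in MR, and that of Nusap1 covered 65.0% and 52.2%. Among the 19 genes, 15 were lower and 4 higher in MR, and the log2 ratios had a median of -0.40 and a range from -1.10 to 0.72. Of the 5 genes past 1 in either direction, only Spc25 was among the 19. On coverage per aligned Gb, 32 of the 42 genes were lower and 10 higher in MR.

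The promoters of late cell cycle genes typically carry a CHR element (TTTGAA), which the DREAM complex binds, and CCAAT boxes (CCAAT), which NF-Y binds. Windows from 250 bases before to 50 bases after the gene start were taken from RefSeq (GRCm38.p6) for 35 of the 42 genes. Ccna2, Cdc25c, Incenp, Foxm1, Tpx2, Aurkb and Kif20a had no entry. On either strand, a CHR was present in 24 of 35 windows (68.6%), beside 18.1% of 27025 promoters of the same length. A CCAAT box was present in 25 (71.4%), beside 37.9%. Both were present in 21 (60.0%), beside 7.12%. A CHR and a CCAAT box can share at most 1 base where they adjoin. Below are the last 120 bases before and the first 50 bases after the start, 5′ to 3′ on the strand of the gene, with CHR and CCAAT letters of either strand in capitals. The first 5 are the CHR-holding genes with the lowest log2 ratios among those with at least 10 TPM in M, and Cenpa is the gene with the highest log2 ratio on TPM (1.29), which is -0.25 on coverage per aligned Gb.
Spc25 (chr2:69206164-69206333, minus strand): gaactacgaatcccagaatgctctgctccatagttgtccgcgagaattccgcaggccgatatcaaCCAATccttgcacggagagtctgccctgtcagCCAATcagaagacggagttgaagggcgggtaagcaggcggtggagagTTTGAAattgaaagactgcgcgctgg
Ndc80 (chr17:71526808-71526977, minus strand): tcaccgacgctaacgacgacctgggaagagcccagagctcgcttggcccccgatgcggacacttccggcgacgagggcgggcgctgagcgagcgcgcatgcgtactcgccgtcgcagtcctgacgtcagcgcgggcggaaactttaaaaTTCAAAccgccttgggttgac
Mki67 (chr7:135716330-135716499, minus strand): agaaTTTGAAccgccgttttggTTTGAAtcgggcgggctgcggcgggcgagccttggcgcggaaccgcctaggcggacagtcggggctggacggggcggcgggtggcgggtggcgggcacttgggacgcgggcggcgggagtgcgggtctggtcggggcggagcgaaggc
Kif11 (chr19:37376262-37376431, plus strand): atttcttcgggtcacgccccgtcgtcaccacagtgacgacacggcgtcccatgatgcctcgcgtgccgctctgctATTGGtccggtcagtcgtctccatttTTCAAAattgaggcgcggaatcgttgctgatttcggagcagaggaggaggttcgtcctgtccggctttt
Kif23 (chr9:61946750-61946919, minus strand): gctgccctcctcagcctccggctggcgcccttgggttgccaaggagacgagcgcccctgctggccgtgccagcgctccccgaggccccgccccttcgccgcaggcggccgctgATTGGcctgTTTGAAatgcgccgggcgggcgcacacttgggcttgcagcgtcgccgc
Cenpa (chr5:30666766-30666935, plus strand): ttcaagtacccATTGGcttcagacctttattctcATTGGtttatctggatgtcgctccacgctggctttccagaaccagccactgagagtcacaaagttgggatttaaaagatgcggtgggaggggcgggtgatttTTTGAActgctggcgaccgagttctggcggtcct
Each position is that of the first base of the match on the printed strand, where the start base is 1 and the base before it is -1. Spc25 held a CHR at 25 and CCAAT boxes at -55 and -23. Ndc80 held its CHR on the opposite strand at 30, and its window held no CCAAT box. Mki67 held a CHR at -116 and at -98, and its CCAAT boxes, at -188, -166 and -141, lie before the printed stretch. Kif11 held a CHR at -19 and a CCAAT box at -45, both on the opposite strand. Kif23 held a CHR at 3 and a CCAAT box on the opposite strand at -7. Cenpa held both motifs, with a CHR at 17 and CCAAT boxes on the opposite strand at -109 and -86.

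**Figure D2:**
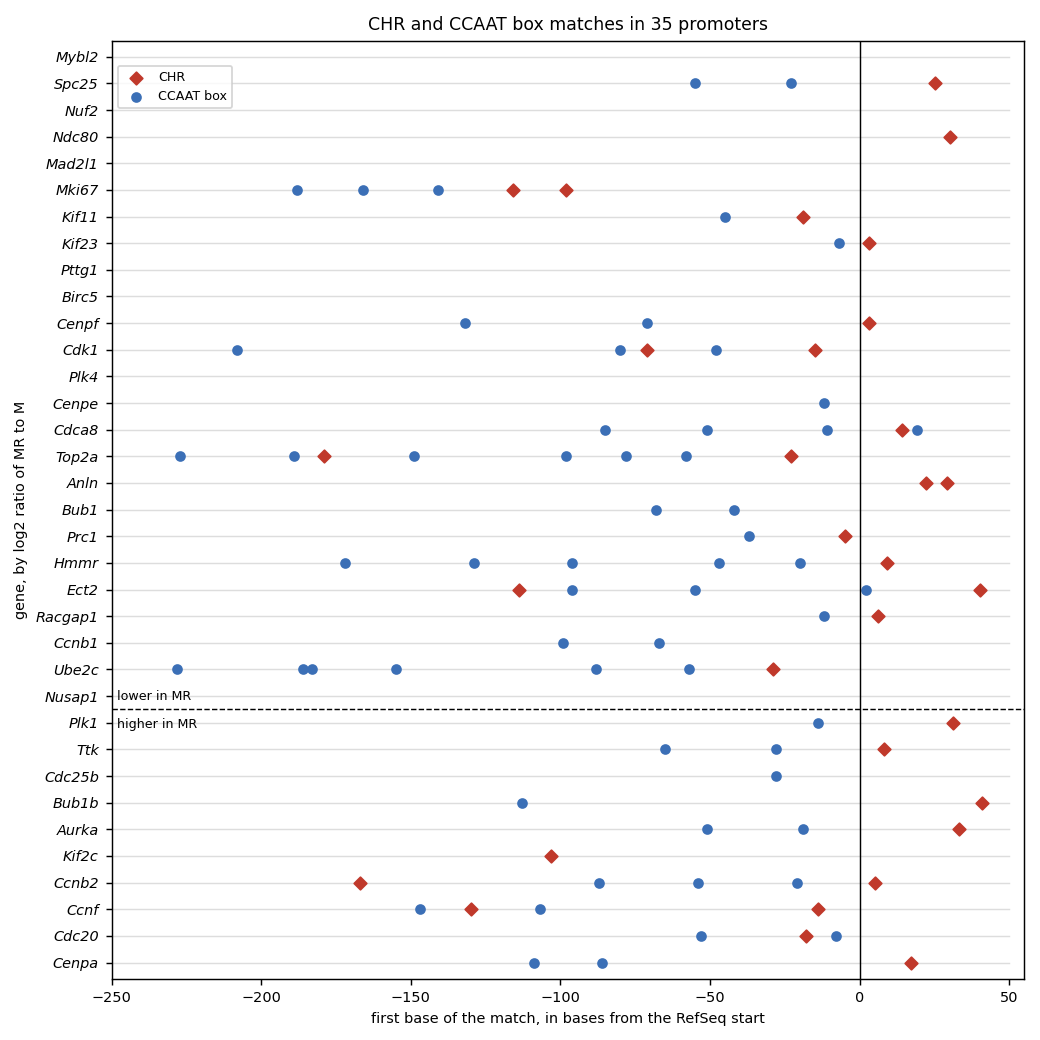
Positions of CHR and CCAAT letters in the promoter windows of the 35 genes with an entry, in bases from the gene start, with 1 line per gene and 1 mark per match. The motifs lie on genes that were lower and on genes that were higher in MR, and 7 lines carry no mark.

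The motifs were found in genes of both directions. Of the 10 genes with an entry that were higher in MR, 9 held a CHR and 9 a CCAAT box. Ccnf, Plk1, Ttk and Cenpa are 4 of these 10 and held both, but their direction turned under another scaling or on coverage. Of the 25 that were lower, 15 held a CHR and 16 a CCAAT box. The 7 windows with neither motif belonged to Plk4, Mad2l1, Birc5, Nuf2, Nusap1, Pttg1 and Mybl2, all lower in MR. The absence of these letters from the window says nothing of the factors. With TTTAAA counted as well as TTTGAA, 28 of 35 windows (80.0%) held a match, beside 27.8% of all promoters.

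Entry into mitosis was mixed, with 3 of 7 genes lower and 4 higher in MR. Cdk1, the kinase that drives mitosis, was at 39.3 TPM in M and 25.7 in MR (log2 ratio -0.59), with a counting interval from -1.02 to -0.21. Ccna2, cyclin A of S phase and early mitosis, went from 21.8 to 18.4 (log2 ratio -0.23). Ccnb1, the main cyclin partner of Cdk1, went from 16.0 to 14.2 (-0.16). On TPM the kinase was lower by more than these cyclins. The counting intervals of Ccna2 (-0.54 to 0.05) and Ccnb1 (-0.63 to 0.26) overlapped that of Cdk1, and the difference was not tested. Ccnb2, a second B-type cyclin, was higher in MR, with 13.7 in M and 20.4 in MR (0.54, counting interval from 0.21 to 0.95). Ccnf, the F-box protein cyclin F, was at 13.9 and 20.8 (0.55), but at -0.05 on coverage per aligned Gb. The phosphatases that switch Cdk1 on were also higher on summed TPM. Cdc25b was at 15.4 and 18.5 (0.25), and Cdc25c at 3.5 and 5.54 (0.54), assembled as 1 locus in M and 2 fragments in MR. The 2 fragments of Cdc25c were at 2.27 and 3.26 TPM, each below its locus in M. The direction of Cdc25c therefore rests on summing fragments. The summed TPM of the 7 genes was 123 in M and 124 in MR.

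Polo and Aurora kinases build and orient the spindle poles. Plk1, the kinase of spindle assembly and mitotic exit, was at 15.2 TPM in M and 16.0 in MR (log2 ratio 0.08), with a counting interval from -0.55 to 0.71. Plk4, which starts centriole duplication, was lower in MR, at 7.12 and 4.39 (-0.59, counting interval from -2.09 to 0.65). Aurka, the kinase of the spindle poles, was at 13.5 and 16.4 (0.27, counting interval from -0.07 to 0.63). Median-of-ratios scaling turned Plk1 to -0.10, and Plk4 and Aurka kept their direction under it.

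The spindle assembly checkpoint holds anaphase until every kinetochore is attached, and its members went both ways. Mad2l1, which forms the inhibitor of Cdc20, was at 31.7 TPM in M and 16.4 in MR (log2 ratio -0.91). Bub1, the kinase that brings the checkpoint to kinetochores, was at 8.29 and 6.02 (-0.40). Both were lower in MR. Bub1b, which encodes BubR1 of the same inhibitor, was higher in MR, at 19.7 and 23.9 (0.27, counting interval from 0.07 to 0.48). Ttk, the kinase Mps1 at the top of the checkpoint, was at 8.13 and 8.75 (0.10), and at -0.07 after median-of-ratios scaling. It was assembled in 2 fragments in M, at 4.31 and 3.82 TPM, and 3 in MR, at 2.26, 2.63 and 3.86. The extra fragment in MR adds to the sum, so Ttk has no clear direction.

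The chromosomal passenger complex, which corrects wrong attachments and then moves to the central spindle, was lower in all 4 of its genes. Aurkb, its kinase, at chr11:69045647-69051664 on the plus strand, was at 18.7 TPM in M and 6.87 in MR (log2 ratio -1.32, counting interval from -1.89 to -0.99). On coverage per aligned Gb the log2 ratio of Aurkb was -0.54, since its coverage in M was 56.8% of what its FPKM corresponds to. Birc5, which encodes survivin, was at 37.4 and 23.2 (-0.67) and was among the 19 genes with clean loci. Incenp, the scaffold, was at 48.8 and 27.4 (-0.81), and its locus in M ran 14621 bases upstream of the gene. Cdca8, which encodes borealin, was at 27.6 and 19.4 (-0.49). The summed TPM of the complex was 132 in M and 76.9 in MR.

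The outer kinetochore binds microtubules through the Ndc80 complex, and the 3 subunits measured here were lower in MR by similar amounts. Spc25, at chr2:69193895-69206194 on the minus strand, was at 14.9 TPM in M and 6.44 in MR (log2 ratio -1.10, counting interval from -2.10 to -0.33). Ndc80, at chr17:71496100-71526857 on the minus strand, was at 12.5 and 5.91 (-0.96, counting interval from -1.58 to -0.62). Nuf2 was at 11.1 and 5.18 (-0.97). All 3 had clean loci, and the promoters of Spc25 and Ndc80 printed above held a CHR, while that of Nuf2 held neither motif. Spc24, a further subunit of the complex from the wider list of mitosis genes, was lower by less, at 9.8 and 6.09 (-0.61). Cenpe, the kinesin that carries chromosomes to the spindle equator, was at 7.76 and 4.99 (-0.55). Cenpf, a large outer kinetochore protein, was at 11.1 and 6.84 (-0.62), summed over 4 fragments in M and 3 in MR. The larger number of fragments in M adds to that fall. Thus 5 of the 6 kinetochore genes were lower.

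Cenpa, the histone H3 variant that marks the centromere, was the exception. At chr5:30666777-30674830 on the plus strand, it was at 11.3 TPM in M and 28.9 in MR (log2 ratio 1.29, counting interval from 0.57 to 2.15). Its coverage per aligned Gb was 5.0 in M and 4.05 in MR, so that the log2 ratio on that scale was -0.25, in the opposite direction. The coverage of Cenpa was 95.8% of what its FPKM corresponds to in M and 31.5% in MR. The direction of Cenpa therefore depended on which deposited column was read.

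Spindle motors and microtubule proteins were lower in 4 of 5 genes. Tpx2, which activates Aurora A and seeds microtubules around chromosomes, lies at chr2:152847964-152895321 on the plus strand and was the second most abundant of the 42 genes in M. Its TPM was 57.7 in M and 16.0 in MR (log2 ratio -1.78, counting interval from -2.05 to -1.64), and its log2 ratio was -1.69 on coverage per aligned Gb. Tpx2 thus kept its size on both scales. Kif11, the motor that pushes the poles apart, was at 17.2 and 9.84 (-0.74, but -0.28 on coverage per aligned Gb). Nusap1, a microtubule-bundling protein, was at 9.6 and 8.7 (-0.13), and Hmmr, a spindle pole protein, at 7.67 and 5.74 (-0.36). Kif2c, the kinesin that takes microtubule ends apart, was higher in MR, at 6.73 and 8.99 (0.37, counting interval from -0.79 to 1.48).

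Genes of the central spindle and of cytokinesis were lower in 5 of 6 cases, with a median log2 ratio of -0.38. Kif23, the motor subunit of centralspindlin, was at 16.3 TPM in M and 9.51 in MR (-0.72), and its partner Racgap1 was at 22.7 and 17.6 (-0.35). Prc1, which bundles the central spindle, was at 16.1 and 12.0 (-0.40). Ect2, the exchange factor that activates RhoA at the division plane, was at 7.02 and 5.25 (-0.36), and Anln, the anillin of the contractile ring, at 10.5 and 7.47 (-0.44). These 5 log2 ratios lay between -0.72 and -0.35, from the central spindle to the ring. The counting interval of Kif23 lay below 0 (-1.18 to -0.37). Those of Racgap1 (-1.08 to 0.34), Prc1 (-1.47 to 0.52), Ect2 (-1.45 to 0.64) and Anln (-1.47 to 0.52) spanned 0. Kif20a, a kinesin that carries the passenger complex to the central spindle, was higher in MR, at 12.6 and 17.7 (0.46, counting interval from -0.05 to 1.01).

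The genes of anaphase differed among themselves. Pttg1, which encodes securin, the inhibitor of separase, lies at chr11:43420250-43426251 on the minus strand and was the most abundant of the 42 genes in both libraries. Its TPM was 115 in M and 71.4 in MR (log2 ratio -0.68, counting interval from -0.98 to -0.40). Cdc20, the activator of the anaphase-promoting complex, lies at chr4:118432901-118437352 on the minus strand and was higher in MR. Its TPM was 10.5 in M and 17.9 in MR (0.72, counting interval from 0.39 to 1.14), the largest rise among the genes with clean loci. Ube2c, the ubiquitin-conjugating enzyme of the complex, was at 40.9 and 37.4 (-0.13). Mad2l1 and Cdc20, inhibitor and target in the checkpoint, thus moved in opposite directions.

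Of the chromosome proteins, Top2a, the topoisomerase that untangles sister chromatids, was at 40.1 TPM in M and 28.3 in MR (log2 ratio -0.49, counting interval from -0.64 to -0.36). Mki67, the proliferation antigen that coats mitotic chromosomes, was at 23.1 and 12.4 (-0.85). Both were lower in MR. The transcription factors were lower as well. Foxm1, an activator of mitotic genes, was at 11.0 and 7.61 (-0.48). Mybl2, which encodes B-Myb, was at 25.2 and 3.11 (-2.68), the largest fall of the 42 genes. The Mybl2 value in M is uncertain. Its locus there ran 37211 bases upstream of the gene and also covered 95.6% of the exon bases of Ift52, which had no locus of its own in M and a TPM of 37.5 in MR. On coverage per aligned Gb the log2 ratio of Mybl2 was -0.99.

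**Figure D3:**
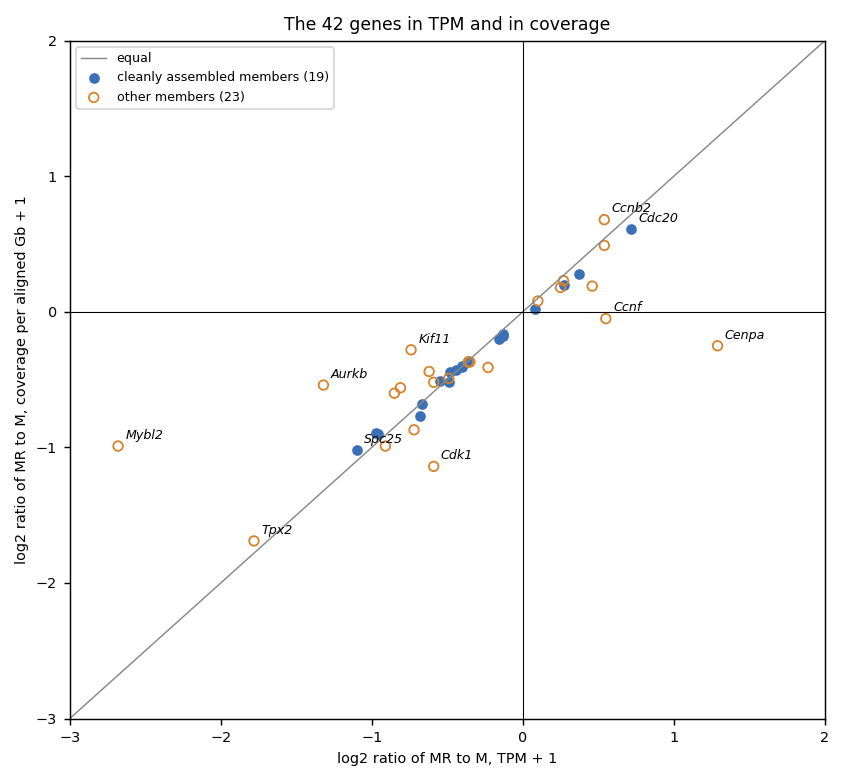
Log2 ratio of MR to M on TPM against that on coverage per aligned Gb for the 42 genes, 1 point per gene. For 35 of the 42 genes the log2 ratios differ by at most 0.25, and Cenpa (1.29 on TPM and -0.25 on coverage) and Mybl2 (-2.68 and -0.99) lie farthest from it.

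The wider set of mitosis genes was mixed, and its difference from the 42 genes was not tested. A further list of 125 gene names, of which 123 were found in the annotation and had a value, held 56 lower and 67 higher genes, with a median log2 ratio of 0.14. This is 45.5% lower, beside 40.6% of all genes, and the median was -0.03 with median-of-ratios scaling and -0.05 on coverage per aligned Gb. Condensin, which compacts chromosomes, was lower in 7 of 8 genes (median -0.56), and its gene Ncapg2 went from a TPM of 42.9 to 12.0 (-1.76). Other kinetochore genes were lower in 21 of 28 cases (median -0.28), among them Nsl1 of the Mis12 complex, at 10.7 and 4.02 (-1.22). The kinetochore thus leaned in the same direction in both lists.

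In the cohesin, anaphase-promoting complex, spindle and centrosome, and cytokinesis lists more genes were higher than lower, as in the whole table, where 59.4% of genes were higher and the median was 0.21. Cohesin and its regulators were higher in 7 of 9 genes (median 0.42), with the cohesin subunit Rad21 at 58.0 in M and 137 in MR (1.23) and separase, Espl1, at 9.49 and 27.7 (1.45). Sororin, Cdca5, went the other way, at 11.0 and 4.92 (-1.02). Core subunits of the anaphase-promoting complex were higher in 10 of 15 genes (median 0.31), although Anapc5 was at 202 and 106 (-0.92). Spindle and centrosome genes were higher in 17 of 23 cases (median 0.35), and other cytokinesis genes in 8 of 10 (median 0.31), with the septins Sept11 at 11.3 and 70.0 (2.53) and Sept9 at 98.3 and 223 (1.17). Septins and Rad21 also act outside mitosis. The checkpoint gene Mad1l1 was at 11.6 and 38.9 (1.66), but at -0.57 on coverage per aligned Gb. Pbk, a mitotic kinase, was at 11.1 and 4.87 (-1.04).

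**Figure D4:**
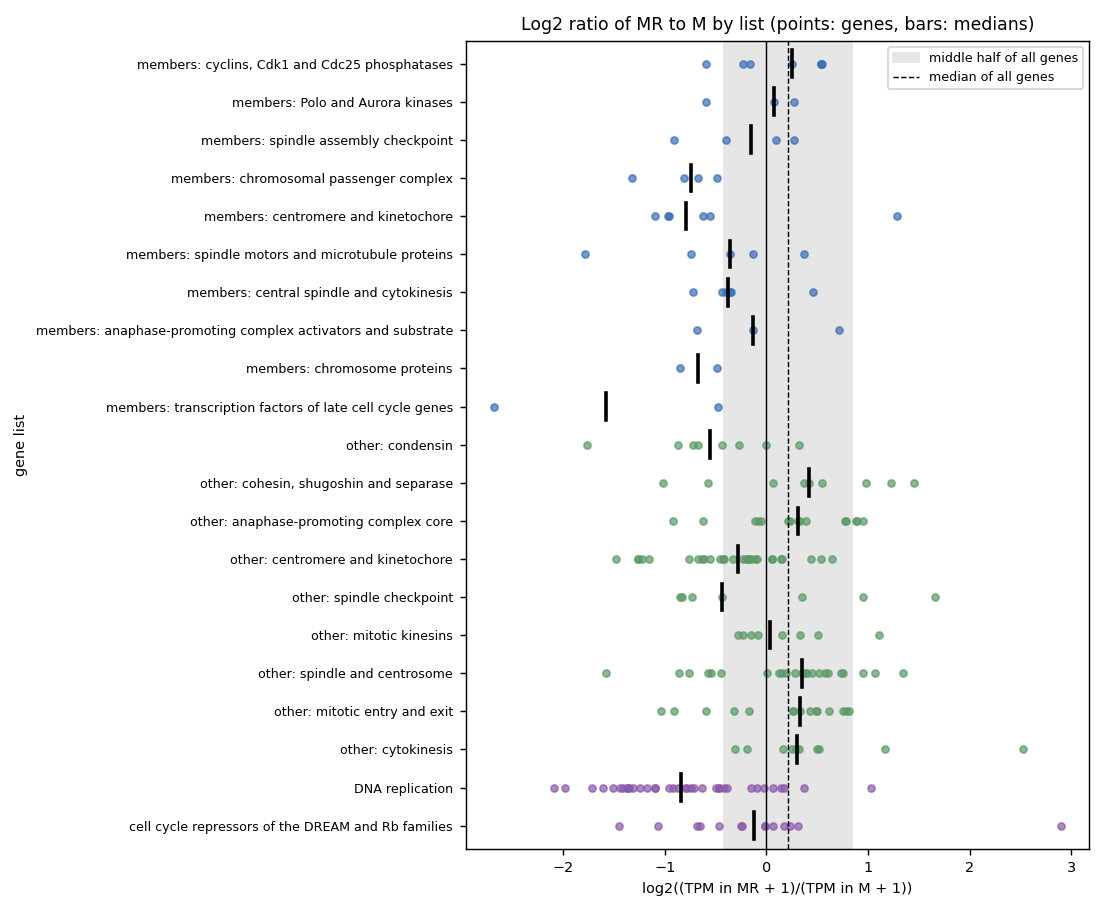
Log2 ratio of MR to M on TPM for each gene of the 10 role groups, of the other mitosis genes by complex, and of the DNA replication and repressor lists, with points for genes and bars for medians. The DNA replication list has the lowest median of the comparison lists (-0.84), and the medians of the cohesin and the spindle and centrosome lists lie above 0. The grey band holds the log2 ratios from -0.42 to 0.84, the quartiles of all genes, and the dashed line is their median of 0.21.

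DNA replication genes stood lower than the mitosis genes in size. Of 36 genes, 31 were lower and 5 higher in MR, which is 86.1% lower, beside 40.6% of all genes. Below -1 were 15 of the 36 genes (41.7%), beside 13.3% of all genes, and the median log2 ratio was -0.84. Their TPM summed to 1501.3 in M and to 688 in MR. Pcna, the sliding clamp of DNA polymerase, was at 518 and 121 (-2.09), and Cdc6, which loads the replicative helicase, at 12.1 and 2.32 (-1.98). Pole, the catalytic subunit of DNA polymerase epsilon, was at 6.37 and 14.0 (1.03), from 1 locus in M and 7 fragments in MR. The sum over 7 fragments raises its TPM in MR, so the direction of Pole is uncertain. The difference between the lists was not tested. Of 14 repressors of the DREAM and Rb families, 9 were lower and 5 higher (median -0.13), which is 64.3% lower, beside 40.6% of all genes. E2f8, an atypical repressor of E2F targets, was at 14.9 and 4.82 (-1.45) and Rbl1, which encodes p107, at 16.6 and 7.41 (-1.07), while E2f4, the E2F of DREAM, was at 42.6 and 44.7 (0.07).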

How the data were processed

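RNA-seq of 1 M and 1 MR library was used, so 2 libraries in all, and groups were taken from the treatment label. The authors trimmed paired reads of 150 bases with Trim Galore, aligned them to mm10 (GRCm38) with HISAT2 and ran StringTie with the GENCODE vM27 annotation, whose positions refer to GRCm39. The deposited tables list per entry the coverage, a signal of read depth per base not scaled to library size, together with FPKM and TPM. The deposited TPM of the assembled loci alone sum to 1000000 per library, and entries with gene names, which come in addition, were not used. The check of the values therefore treated the deposited TPM column as a signal.

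Assembled loci were matched by position to GENCODE vM21 (GRCm38), each to the gene whose exons it covered most, with a minimum of 50 exon bases and no conflict of strand. Where a locus also took in 50% or more of a further coding gene's exon bases, it was called shared. The 19422 loci of M and 19922 of MR gave 15665 and 16523 loci to genes, with 95.4% and 96.9% of the TPM, and placed 14452 genes in a locus of their own, 340 in a shared locus and 95 inside the locus of another gene, which got no value. TPM was summed per gene. Since TPM is normalized to length, the sum of a gene assembled in several fragments rises with their number, as for Cdc25c, Ttk and Cenpf. Log2 ratios used a pseudocount of 1, which understates the change of low genes. Genes that had their own locus and reached a TPM of 1 in either library formed the background. All 42 mitosis genes passed this TPM filter, and Mybl2 had a shared locus. Called means a log2 ratio past 1. Aligned bases were taken from the modal value of coverage over FPKM, using entries above 5 FPKM, and read pairs were taken as 300 bases long.

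The genes and lists were chosen with earlier results of these data known. All 42 genes are named. Of the other lists, genes were eligible with a TPM of at least 10 in either library and among the 5 largest rises or falls of their list, and not all of these are printed. E2f4 and Rbl1 are among those of the repressor list. Spc24 was named outside this rule, as a further subunit of the Ndc80 complex. Sgol1 and Sgol2a of the other mitosis list were not found in the annotation. They are earlier names of Sgo1 and Sgo2a, which are in the same list and had values. Alternatives were a pseudocount of 0.1, FPKM, coverage per aligned Gb, median-of-ratios scaling, TPM without mitochondrial and the 20 most abundant genes, loci with a strand only, genes with their own locus in both libraries, no filter, a TPM of at least 10, and a threshold of 0.5. The assignment was tested on simulated data with a single locus per coding gene, inside the gene and on its strand. Merged loci, fragments and loci without a strand were not simulated, so the test does not cover them. Computation used Python 3.11.15, pandas 2.3.3 and numpy 2.4.6, intervals scipy 1.17.1, and plots matplotlib 3.10.9.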

Additional observations from a re-analysis of the deposited data

How the results depend on the processing

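No paired analysis was possible because each condition had 1 library, and for the same reason no replicate could be left out. Of the 42 genes, 37 kept their direction under all 7 alternative scalings and assignments, 29 of them lower and 8 higher in MR. Mybl2, which has a shared locus, kept it under the 6 that apply to it, and Ccnf, Plk1, Ttk and Cenpa did not keep it. Cenpa turned to -0.25 with coverage per aligned Gb. All of these alternatives sum the fragments of a gene, so none tests what fragment number adds for Cdc25c, Ttk and Cenpf. Median-of-ratios scaling, which lowers MR against M by 0.18 on the log2 scale before the pseudocount, gave 32 lower and 10 higher genes. It put 8 below -1 (beside 15.7% of all genes), and TPM without mitochondrial and the 20 most abundant genes put 7 there (beside 14.9%). With coverage, 0 genes were above 1 (beside 15.7% of all genes) and 3 below -1 (beside 10.1%). With a threshold of 0.5, 5 of the 42 genes were above 0.5 and 17 below -0.5, beside 4902 and 3032 of the 13473 genes. The counts over all genes were 1791 above 1 and 1102 below -1 for genes with their own locus in both libraries. That filter also leaves out genes without a locus in 1 library. With a TPM of at least 10 the counts were 1601 and 983. In the 19 genes with a clean locus, an alternative chosen after seeing the data, 15 were lower, 4 higher, 0 above 1 and 1 below -1. Of all genes, 21.3% were above 1 and 13.3% below -1. Without Mybl2 and Incenp, likewise chosen after seeing the data, 28 were lower and 12 higher. Single genes that moved were Top2a (-0.66 with median-of-ratios scaling) and, with coverage, Aurkb (-0.54), Ccnf (-0.05), Cdk1 (-1.14), Kif11 (-0.28) and Mybl2 (-0.99). On the estimated pairs, which can be too low, 17 of the 42 intervals spanned 0, for genes with 15 to 244 estimated pairs in M. The cause of the gap between coverage and FPKM was not tested.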
